A study of Bos taurus with 30 samples.

Results

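Cows carrying cloned embryos, which are made by somatic cell nuclear transfer (SCNT), were set against cows made pregnant by artificial insemination (AI). The quantity compared was the ratio of gene expression between the caruncular and the intercaruncular endometrium of each cow. The members were chosen by their label alone: 20 arrays of 10 animals, 5 SCNT and 5 AI, out of 30 arrays of 15 animals in the series. The other animals carried embryos fertilised in vitro and transferred (IVF-ET). Each array with 2 colours held RNA of both tissues of 1 animal, one labelled with Cy3 and the other with Cy5, and each of the 10 animals had 2 arrays with the dyes exchanged. No transgene or added agent is named for either group, and the stage of pregnancy, the age and breed of the cows, the donor cells of the clones and any sharing of sires are not given in the sources used here. Animals are called replicates 1 to 5 in the order of their labels, so a number pairs no SCNT animal with an AI animal. All AI arrays come before all SCNT arrays in the numbers of their titles, so whatever that numbering follows cannot be told apart from the group.

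The ruminant placenta does not attach along the whole uterus. It attaches at the caruncles, raised patches of stroma without glands, which grow together with fetal cotyledons into placentomes. The intercaruncular endometrium between them carries the glands, whose secretions feed the conceptus before and after attachment. Placentomes of cloned cattle are known for being few and enlarged, and the regional make-up of the uterine lining is therefore of interest in such pregnancies. The comparison asks at which genes the balance between the tissues differed between SCNT and AI pregnancies.

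Log ratios between the channels were deposited, and whether they had already been turned to 1 order of the tissues is not stated. They were read here as ratios of the tissues and as log2, centred on the median of its array and averaged over duplicate spots and over the 2 arrays of an animal. Read as dye ratios instead, they gave 0 calls as deposited and 868 with the AI sign turned, against 10 and 0 in the reading used here. Turning the AI sign adds the group means. In the dye reading a dye effect common to both groups adds up there, so the 868 need not be differences between the groups. Each value is a ratio, not a level, so it does not show whether a marker of a tissue was present, and which tissue stands on the positive side is not settled. The glandular genes, which the intercaruncular side carries, did not settle it: the median over 22 of them lay between -0.14 and 0.13 in SCNT animals and between -0.26 and 0.13 in AI animals. Whether the AI arrays run in the same direction as the SCNT arrays is not settled either. The mean profiles of the groups had r = -0.292 over probes, a description in which probes do not count as replicates. Differences between the groups and counts over gene lists are therefore given as deposited and with the sign of every AI value turned, called turned here. In bulk RNA, fewer cells of a type and less RNA per cell cannot be told apart.

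Profiles of the SCNT animals shared 1 direction and those of the AI animals did not, by their correlations over probes, which are descriptions without a test. All 10 pairs of SCNT animals had profiles that correlated above 0 over probes, at r between 0.0131 and 0.426 with a median of 0.275. Of the 10 pairs of AI animals 5 did so, between -0.226 and 0.330 with a median of 0.0042. Between an SCNT and an AI animal r had a median of -0.154 over 25 pairs, of which 10 lay above 0. Each SCNT array correlated above 0 with the mean of the other SCNT animals, at r between 0.128 and 0.379. Both arrays of AI replicate 3 lay below 0 against the SCNT mean, at -0.402 with the caruncle on Cy3 and -0.312 with it on Cy5. Both arrays of replicate 4 also lay below 0, at -0.495 and -0.147, as did those of replicate 2, at -0.0634 and -0.177. Both arrays of replicate 5 lay above 0, at 0.162 and 0.124. Those of replicate 1 fell on either side, at 0.439 and -0.0591. A single turn of the sign for the group therefore does not bring all 5 AI animals to the side of the SCNT animals.

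**Figure D1:**
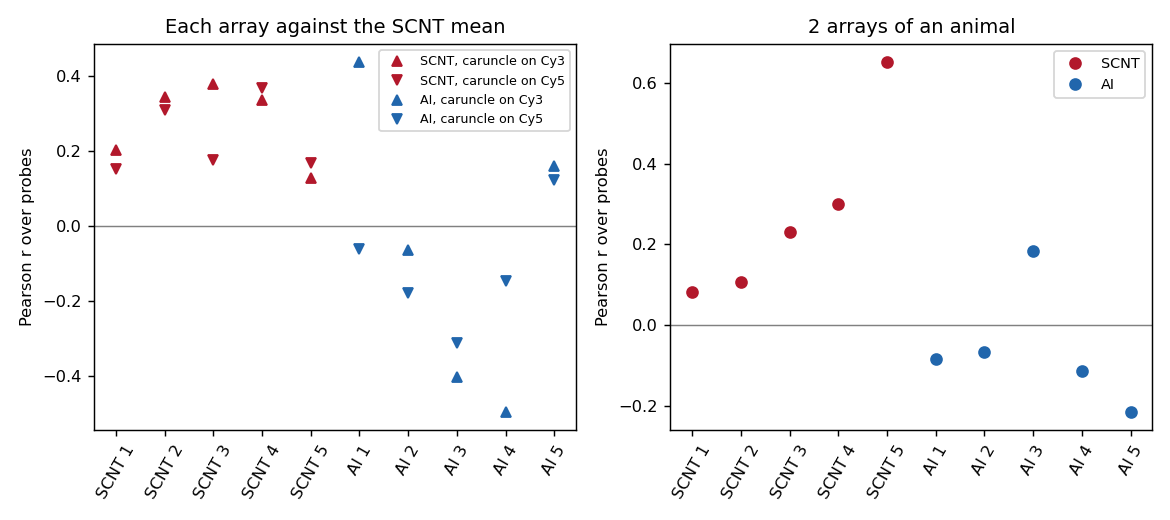
Left, Pearson r over probes between each array and the mean of the other SCNT animals (y axis), by animal, with upward triangles for the caruncle on Cy3 and downward ones for Cy5. Right, r between the 2 arrays of each animal; the SCNT points lie between 0.0823 and 0.654 and the AI points between -0.216 and 0.183.

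The 2 arrays of an animal correlated more closely in the SCNT group before the dye effect was taken off. Their correlation over probes was 0.0823, 0.107, 0.231, 0.300 and 0.654 in SCNT replicates 1 to 5. It was -0.0844, -0.0664, 0.183, -0.114 and -0.216 in AI replicates 1 to 5. The means were 0.275 ± 0.230 (SD, n = 5) and -0.0597 ± 0.147 (SD, n = 5), a difference of 0.334 with p = 0.0238 in a two-sided exact permutation test over 252 splits, whose smallest possible p is 0.00794. With the mean dye effect of each probe taken off first, the difference was 0.194 and the exact permutation p = 0.190. The spread of a profile, measured as the SD over probes, was 0.321, 0.267, 0.274, 0.216 and 0.702 in SCNT replicates 1 to 5 and between 0.266 and 0.325 in the AI animals. Only SCNT replicate 5 stood apart, and the group means of 0.356 ± 0.197 and 0.287 ± 0.0262 (SD, n = 5 each) differed by 0.0685, with exact permutation p = 0.754. Without SCNT replicate 5 that difference was -0.0179. The arrays held values for 26744 to 27643 of 27648 spots, and duplicate spots within an array correlated at r between 0.562 and 0.940. The precision is limited by the number of animals and by the low correlation between the 2 arrays of an animal, above all in the AI group.

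As deposited, 10 of 13818 probes differed between SCNT and AI (limma, Benjamini-Hochberg adjusted p under 0.05), which is 0.0724% of those tested. Of these, 3 had the higher ratio in SCNT (0.0217%) and 7 the lower (0.0507%). The collagen gene COL6A3, the elastic fibre gene EMILIN1, the transcription factor SNAI2 and the retinol receptor STRA6 were among those lower in SCNT, and the tight junction gene CGN was higher. At all 10 probes the 5 SCNT animals lay apart from the 5 AI animals. Over all probes, 162 had every SCNT animal above every AI animal (1.17%) and 229 had every one below (1.66%). An unadjusted p under 0.05 was reached by 1538 probes. With the AI sign turned, limma called 0 probes (0%) and its lowest adjusted p was 0.899. There 681 probes reached an unadjusted p under 0.05. Under that sign 56 probes (0.405%) had all SCNT animals above and 59 (0.427%) all below. No probe passed under both signs.

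COL6A3 (gene ID 530657) encodes a chain of type VI collagen, which forms beaded filaments around stromal cells. Its log ratio was -1.90, -1.51, -1.04, -1.52 and -2.46 in SCNT replicates 1 to 5. In AI replicates 1 to 5 it was 0.61, 1.20, 1.12, 0.64 and -0.14. All SCNT animals lay below 0 and 4 of 5 AI animals above it, with no overlap. The means were -1.69 ± 0.53 and 0.68 ± 0.53 (SD, n = 5 each), and the difference of -2.37 ± 0.29 (SE from limma, 95% interval -2.99 to -1.75) had an adjusted p of 0.0142. If the base is 2, the tissue ratio differed 5.17-fold between the groups. All 10 SCNT arrays gave a value below 0 and 8 of 10 AI arrays one above it. AI replicate 1 was split, at -1.38 on the array with the caruncle on Cy3 and 2.61 on the other, so its mean of 0.61 stands for neither array.

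EMILIN1 (gene ID 540451), a glycoprotein of elastic fibres, moved in the same direction. It lay at -1.36, -1.32, -0.59, -0.62 and -0.86 in the SCNT animals and at 0.06, 0.64, 0.82, 0.74 and -0.06 in the AI animals. The means of AI replicates 1 and 5 were near 0 but joined opposite arrays, at -0.84 and 0.96 in replicate 1 and at -0.63 and 0.50 in replicate 5. SCNT replicate 5 was also split, at -2.28 and 0.56. The difference was -1.39 ± 0.22 (SE, n = 5 each, adjusted p = 0.0451), a 2.62-fold difference of the ratio. SCNT replicate 2 had a value on 1 array only, and 8 of the 9 SCNT arrays with a value were below 0.

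**Figure D2:**
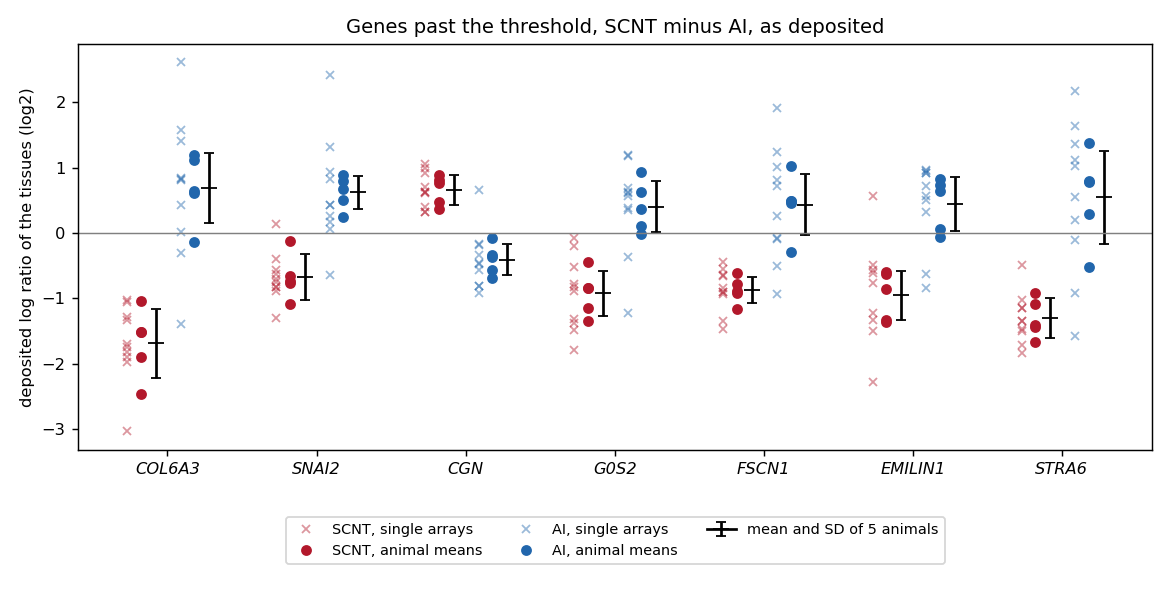
Deposited log ratio of the tissues (y axis, read as log2) of the 7 named genes past the threshold, with crosses for single arrays, dots for animal means and bars for the mean and SD of 5 animals. Dots of SCNT (red) and AI (blue) do not overlap at any of the 7 genes, while single arrays overlap at all 7.

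SNAI2 and CGN bear on the epithelial state and had opposite signs. SNAI2 (gene ID 520631), a repressor that switches off epithelial adhesion genes, was at -0.76, -1.09, -0.73, -0.66 and -0.13 in SCNT replicates 1 to 5. It was at 0.89, 0.50, 0.79, 0.68 and 0.25 in the AI animals. Every SCNT animal was below 0 and every AI animal above, with means of -0.67 ± 0.35 and 0.62 ± 0.26 (SD, n = 5 each) and a difference of -1.29 ± 0.18 (SE, adjusted p = 0.0223). Its AI value in replicate 1 joins arrays at -0.64 and 2.42. The SNAI2 value of SCNT replicate 5 joins arrays at -0.39 and 0.14, and 9 of 10 SCNT arrays were below 0. CGN (gene ID 533725), cingulin of the tight junction plaque, was at 0.36, 0.81, 0.48, 0.77 and 0.89 in SCNT animals against -0.07, -0.36, -0.57, -0.69 and -0.33 in AI animals. Here the animals of each group lay wholly on 1 side of 0. CGN means were 0.66 ± 0.23 and -0.41 ± 0.24 (SD, n = 5 each), a difference of 1.07 ± 0.15 (SE, adjusted p = 0.0223) or 2.09-fold. All 10 SCNT arrays were above 0 and 9 of 10 AI arrays below for CGN. The exception was the Cy3 array of AI replicate 1, at 0.66.

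The other named genes past the threshold have roles in vitamin A uptake, lipid storage and the cytoskeleton. STRA6 (gene ID 515911), the membrane receptor that takes up retinol from its carrier RBP4, was at -1.43, -1.08, -0.91, -1.41 and -1.67 in SCNT animals. It was at 0.30, 0.78, 1.38, 0.79 and -0.52 in AI animals, where replicate 5 was on the SCNT side of 0 but still above every SCNT animal. The STRA6 difference was -1.85 ± 0.29 (SE, n = 5 each, adjusted p = 0.0451), or 3.60-fold. G0S2 (gene ID 507436), an inhibitor of the lipase that releases stored fat, was at -1.34, -0.83, -0.84, -0.45 and -1.15 against -0.02, 0.37, 0.94, 0.62 and 0.10 in the AI animals. G0S2 was thus below 0 in 5 of 5 SCNT animals and above 0 in 4 of 5 AI animals, with a difference of -1.33 ± 0.21 (SE, adjusted p = 0.0451). FSCN1 (gene ID 507342), which bundles actin filaments, was at -1.15, -0.61, -0.77, -0.89 and -0.92 against 0.49, 0.46, 1.02, 0.49 and -0.29. Its difference was -1.30 ± 0.21 (SE, adjusted p = 0.0451), and 6 of 10 AI arrays were above 0. AI replicate 1 was split between its arrays at all 3 genes, at -1.58 and 2.18 for STRA6, -1.22 and 1.18 for G0S2, and -0.94 and 1.91 for FSCN1. AI replicate 5 was also split at G0S2, at -0.37 and 0.57, and AI replicate 2 at FSCN1, at -0.09 and 1.01.

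The remaining 3 probes past the threshold are not listed in the platform annotation used here and carry no gene name. The probe at spot 22271 was higher in SCNT by 2.04 ± 0.26 (0.84 turned), and the one at spot 20563 by 1.86 ± 0.24 (0.19 turned; SE, n = 5 each). The probe at spot 5261 differed by -1.28 ± 0.16 (-0.39 turned). All 3 had an adjusted p of 0.0142 as deposited with limma and 10 of 10 SCNT arrays on 1 side of 0. At each, 9 of 10 AI arrays lay on the other side. The exception was the Cy3 array of AI replicate 1, at 1.45, 1.36 and -0.97 for spots 22271, 20563 and 5261. Its Cy5 array was at -1.26, -2.13 and 1.39.

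The 7 named genes were also read in the 4 IVF-ET animals with exchanged dyes, as values that did not enter the test. COL6A3 averaged -0.92 ± 0.37 (SD, n = 4) there, STRA6 -0.89 ± 0.49, EMILIN1 -0.56 ± 0.35, SNAI2 -0.63 ± 0.15, G0S2 -0.55 ± 0.44, FSCN1 -0.48 ± 0.41 and CGN 0.66 ± 0.37. At each of these genes the IVF-ET mean had the sign of the SCNT mean and not that of the AI mean. The 7 genes were called on the difference between SCNT and AI, and their group means have opposite signs. An IVF-ET mean therefore had to share the sign of 1 of the groups. The share of all probes with the SCNT sign is not given here, so the match has no background beside it.

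None of these calls held once the AI sign was turned. COL6A3 was then lower in SCNT by -1.002 ± 0.29, but its unadjusted p of 0.00419 did not pass over all probes (adjusted p = 0.899 in limma). STRA6 differed by -0.75 ± 0.29, G0S2 by -0.52 ± 0.21, EMILIN1 by -0.51 ± 0.22, FSCN1 by -0.44 ± 0.21 and CGN by 0.26 ± 0.15, none past the threshold. SNAI2 was left at -0.05 ± 0.18, with a 95% interval from -0.44 to 0.34. The intervals of FSCN1, from -0.88 to 0.01, and of CGN, from -0.07 to 0.58, also spanned 0. The calls also rested on single animals. Without AI replicate 2, 3 or 4 limma called 0 probes, and without AI replicates 1 or 5, or SCNT replicate 5, it called 101, 88 and 91. Without SCNT replicates 1, 2, 3 or 4 it called 5, 3, 3 and 6. COL6A3 passed in 7 of these 10 fits, G0S2 and CGN in 4, and EMILIN1, FSCN1, STRA6 and SNAI2 in 3. The COL6A3 difference lay between -2.58 and -2.18 in them.

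**Figure D3:**
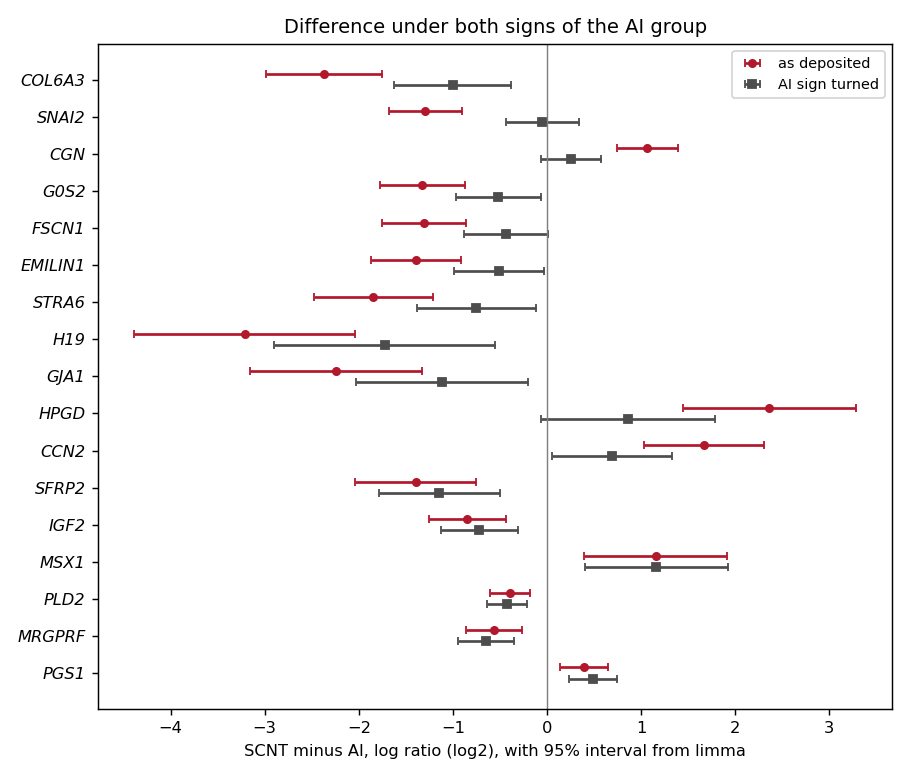
Difference of the log ratio, SCNT minus AI, with its 95% interval from limma (x axis, read as log2), as deposited (red) and with the AI sign turned (grey), for the 7 named genes past the threshold and 10 further genes named in the text. The interval of SNAI2 spans 0 once the sign is turned, while MSX1, PLD2 and MRGPRF hardly move.

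Genes of stromal fibroblasts and their matrix lay mostly lower in SCNT as deposited. Of 35 measured, 30 had the lower ratio in SCNT, 5 the higher, and 2 passed the test, COL6A3 and EMILIN1. The median difference was -0.52, beside -0.03 over the 8073 named genes, of which 3590 were above 0 and 4483 below. In 12 of the 35 all SCNT animals were below all AI animals and in 1 all were above, beside 1.66% and 1.17% of all probes. Turned, 0 of the 35 had the groups apart on either side, beside 0.427% and 0.405% of all probes. The list's own median was -0.46, -0.11, -0.25, -0.37 and -0.26 in SCNT replicates 1 to 5 and 0.21, 0.24, 0.41, 0.13 and -0.01 in AI replicates 1 to 5, with no overlap. With the AI sign turned, 22 of 35 were lower, with a median of -0.19, so the difference as deposited joins opposite signs of the groups. Over 19 other settings the median as deposited stayed between -0.68 and -0.30. Read as dye ratios it was -0.14, and 0.21 with the sign turned.

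Fibrillar collagens had ratios on the same side as COL6A3 and did not pass. COL3A1 differed by -2.24 (adjusted p = 0.0876) and COL1A1 by -1.37 (0.066). Turned, they differed by -1.16 and -0.32. The matrix glycoproteins SPARC, at -1.21 (0.0741), TNC, at -0.83 (0.0896), and OLFML3, at -1.55 (0.0959), also had no overlap between groups as deposited. Turned, these were at 0.01, -0.34 and -0.86. These 5 were picked after their values were seen, from members whose SCNT animals all lay below the AI animals. Of the 35 members 5 were higher in SCNT, CCN2 among them. Without AI replicate 5 the matrix Gla protein MGP passed on that higher side too. The matricellular growth factor CCN2 went the other way, at 0.94, 1.07, 1.04, 1.06 and 1.77 in SCNT animals against -0.67, -1.02, -0.55, -0.91 and 0.71 in AI animals. CCN2 was high in AI replicate 5, which lay on the SCNT side of 0, and its difference of 1.67 ± 0.29 had an adjusted p of 0.0577 (0.69 turned). THBS2, an antiangiogenic matrix protein, differed by -0.26 as deposited and -0.45 with the sign turned (unadjusted p = 0.0241).

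Genes of epithelium and its junctions had the opposite balance. Of 26 measured, 23 were higher in SCNT and 3 lower, 1 passed (CGN), and the median difference was 0.49. The list's median was 0.54, 0.48, 0.26, 0.48 and -0.07 in SCNT animals and 0.12, -0.19, -0.49, -0.51 and 0.21 in AI animals. SCNT replicate 5 fell below AI replicates 1 and 5, so here the groups overlapped. OCLN, a membrane protein of tight junctions, was at 0.53, 0.35, 0.36, 0.54 and 0.78 in SCNT animals against 0.07, -0.50, -0.42, -0.49 and 0.27, a difference of 0.73 ± 0.17 (adjusted p = 0.111), or 0.30 turned. The protease inhibitor SPINT2 differed by 0.92 ± 0.26 (adjusted p = 0.189), or 0.56 turned. CDH1, the adhesion receptor of epithelial cells that SNAI2 is known to repress, differed by 1.03 (adjusted p = 0.193), or 0.52 turned. Its animals did not overlap as deposited, and it was chosen after its value was seen. A link between SNAI2 and CDH1 was not tested. With the AI sign turned 17 of 26 were higher, with a median of 0.13. The largest turned differences by p were those of DSP, a plaque protein of desmosomes, at 0.54 ± 0.21, and EZR, which ties the membrane to actin, at 0.85 ± 0.35 (unadjusted p = 0.0247 and 0.0313). As deposited these differed by 0.73 and 1.11. Read as dye ratios the list's median was 0.02, and -0.04 with the sign turned.

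**Figure D4:**
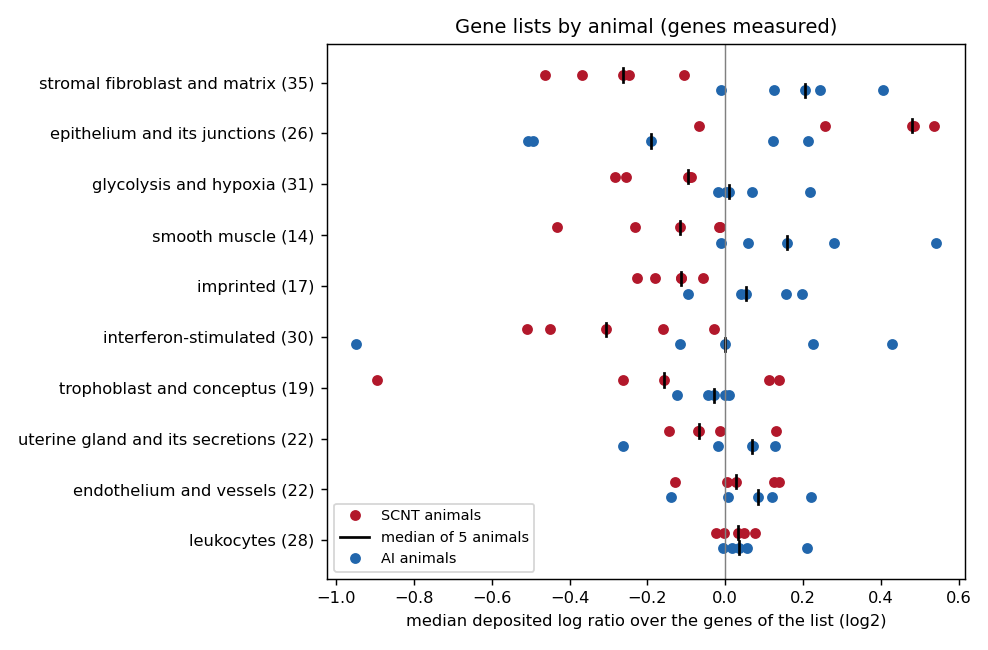
Median deposited log ratio over the measured genes of 10 lists (x axis, read as log2; number of genes in brackets), with 1 dot per animal for SCNT (red) and AI (blue) and a bar at the median of 5 animals. The dots of the stromal list and of glycolysis and hypoxia separate by group, and those of smooth muscle only barely. Those of leukocytes, endothelium and glands lie on top of each other.

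Markers of other cells that a piece of endometrium can hold gave 0 calls, where 10 of all 13818 probes (0.0724%) were called as deposited. At that share, 0 calls do not set these lists, or the later ones with 0 calls, apart from the rest. All 14 smooth muscle genes were lower in SCNT as deposited, with a median of -0.33. The list's median lay between -0.43 and -0.01 in SCNT animals and between -0.01 and 0.54 in AI animals. With the AI sign turned 8 of 14 were higher and the median was 0.08. The contractile gene CNN1 was at -0.69 ± 0.23 as deposited (adjusted p = 0.273) and 0.33 turned. TAGLN also changed sign, from -0.89 ± 0.34 to 0.18, and TPM1 was at -0.48 ± 0.17 and -0.11. The smooth muscle myosin MYH11 was at -0.05 as deposited and 0.56 ± 0.28 turned. Endothelial genes were 9 higher and 13 lower of 22 as deposited and 15 higher and 7 lower turned, with medians of -0.04 and 0.09, and animal medians from -0.13 to 0.14 in SCNT and from -0.14 to 0.22 in AI. The VEGF receptor KDR had the smallest p there, at -0.29 ± 0.12 as deposited (adjusted p = 0.410) and 0.23 turned. Its ligand VEGFA was at -0.30 ± 0.14 and 0.12, and the vessel receptor ROBO4 at -0.27 ± 0.18 and -0.04. With the sign turned the nitric oxide synthase NOS3 and the transcription factor SOX18 were both at 0.31 (unadjusted p = 0.0463 and 0.092), against -0.10 and -0.04 as deposited. Leukocyte genes were 13 higher and 15 lower of 28 as deposited and 18 higher and 10 lower turned, with medians of -0.03 and 0.07, and animal medians from -0.02 to 0.08 in SCNT and from -0.01 to 0.21 in AI. The 3 measured red cell genes, SLC4A1, ALAS2 and AHSP, differed by -0.07, 0.07 and 0.03 as deposited and by -0.05, -0.01 and -0.27 turned. Whether the make-up of the samples had a part in the stromal, epithelial and muscle differences was not tested.

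IGHG1, an immunoglobulin heavy chain made by plasma cells, stood out among the leukocyte genes. It was at -1.003, -0.40, -1.39, -1.22 and -3.73 in SCNT animals and at 0.13, 0.38, 0.05, 0.32 and -0.73 in AI animals. SCNT replicate 5 was far below the rest, and AI replicate 5 below SCNT replicate 2, so the groups overlapped as deposited. They did not overlap with the AI sign turned. The difference was -1.58 ± 0.50 as deposited (adjusted p = 0.231) and -1.52 ± 0.50 turned (adjusted p = 0.899). FCER1G, a signalling chain of Fc receptors, differed by -0.47 ± 0.18 and the T cell coreceptor CD4 by 0.27 ± 0.13, or by -0.13 and -0.04 turned. The scavenger receptor CD163 and NKG7 of cytotoxic cells differed by -0.08 and 0.01 as deposited and by 0.52 ± 0.20 and 0.33 ± 0.14 turned. None of these passed.

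The 3 trophoblast genes named by rule had strongly negative ratios in the same pair of SCNT animals. PAG2, a pregnancy-associated glycoprotein of trophoblast cells, was at 0.08, -0.11, -2.82, -2.42 and 0.07 in SCNT replicates 1 to 5 and between -0.37 and 0.21 in AI animals. The Kunitz domain genes TKDP1 and TKDP4 had the same pattern. TKDP1 was at -2.72 and -2.38 in SCNT replicates 3 and 4 and between -0.25 and -0.01 in the others. TKDP4 was at -2.34 and -2.12 in those replicates and between -0.50 and 0.20 in the others. At these 3 genes replicates 3 and 4 stood apart from the other SCNT animals. Among the named genes past the threshold, replicate 3 had the SCNT value nearest 0 for COL6A3 (-1.04), EMILIN1 (-0.59) and STRA6 (-0.91), and replicate 4 for G0S2 (-0.45). For SNAI2 it was replicate 5 (-0.13), for FSCN1 replicate 2 (-0.61) and for CGN replicate 1 (0.36). The part of trophoblast RNA in those values was not tested. The difference between groups was -0.94 ± 0.54 for PAG2 (adjusted p = 0.577), and -1.14 turned. TKDP1 differed by -0.95 and -1.21 turned, and TKDP4 by -1.001 ± 0.45 and -0.95. Of 19 trophoblast genes 15 were lower in SCNT under either sign, with 0 called and medians of -0.11 and -0.22. Without SCNT replicate 3, 11 were lower as deposited and 13 turned, with medians of -0.03 and -0.04. From arrays with the caruncle on Cy3 alone 10 were lower as deposited and 16 turned, and from those with it on Cy5 alone 16 and 9. Over the whole list the SCNT medians were -0.26, 0.14, -0.90, -0.16 and 0.11, so replicate 4 lay within the range of the others, and the AI medians lay between -0.12 and 0.01. In the dye reading 14 of 19 were lower as deposited and 4 of 19 turned.

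Glandular and secreted products showed no shared direction. Of 22 genes 10 were higher and 12 lower in SCNT, with a median of -0.14 as deposited. Turned, 11 were higher and 11 lower, with a median of -0.02, and 0 were called under either sign. CTSB, a lysosomal protease that glands secrete, differed by -0.46 ± 0.13 (adjusted p = 0.184; -0.27 turned), and AI replicate 1 was at -0.32 where the other AI animals were between 0.10 and 0.27. IGFBP3, a carrier of insulin-like growth factors, differed by -0.59 ± 0.17 and the protease CTSH by -0.79 ± 0.27, against -0.05 turned for CTSH. With the AI sign turned the smallest p values belonged to IGFBP3 at -0.45 ± 0.17, the chemokine CXCL14 at 0.64 ± 0.27 and the iron-binding LTF at 0.65 ± 0.28. As deposited CXCL14 and LTF were at 0.44 and 0.39. None passed over all probes.

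Interferon-stimulated genes respond to interferon tau, the signal by which a ruminant conceptus maintains pregnancy. Their ratios differed widely among AI animals: the median over 30 genes was -0.95, -0.12, 0.23, 0.43 and -0.00 in AI replicates 1 to 5. In SCNT animals it was -0.03, -0.45, -0.31, -0.16 and -0.51. All 5 SCNT medians were below 0, and the AI animals spanned both sides of them. As deposited 21 of 30 genes were lower in SCNT, with a median of -0.23. Turned, 26 of 30 were, with a median of -0.40. In the dye reading 6 of 30 were lower as deposited and 20 of 30 turned. None passed under either sign, and 0 had an unadjusted p under 0.05 as deposited. UBA7, the enzyme that activates ISG15, differed by -0.70 ± 0.34 (adjusted p = 0.490), the transcription factor IRF1 by -0.69 ± 0.35, and UBE2L6, the conjugating enzyme of ISG15, by -0.60 ± 0.31. Turned, these were at -0.61, -0.43 and -0.42. With the sign turned HERC6 was at -0.77 ± 0.29, IRF9 at -0.93 ± 0.39 and USP18 at -0.74 ± 0.32, with unadjusted p between 0.0208 and 0.0358, against 0.04, -0.33 and -0.22 as deposited.

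Imprinted genes, read from 1 parental copy, included the gene with the largest difference among the list members. H19, a non-coding RNA next to IGF2 and oppositely imprinted, was at -2.51, -2.99, -1.34, -2.13 and -3.37 in SCNT animals. In AI animals it was at -0.61, 1.38, 2.02, 1.52 and -0.60. AI replicates 1 and 5 were thus on the SCNT side of 0 and the other AI animals far on the opposite side. The H19 difference was -3.21 ± 0.54 (adjusted p = 0.0577) as deposited and -1.72 ± 0.54 turned (unadjusted p = 0.00752). IGF2, the fetal growth factor, was at -0.80, -0.58, -0.79, -0.80 and -0.96 in SCNT animals, a narrow range, and at -0.31, 0.16, 0.76, 0.01 and -0.29 in AI animals. The IGF2 difference of -0.85 ± 0.19 (adjusted p = 0.0973) was close to that with the sign turned, -0.72 ± 0.19 (unadjusted p = 0.00233). SGCE, an imprinted sarcoglycan, differed by -0.52 ± 0.15 and -0.08 turned. IGF2R, the receptor that clears IGF2, differed by -0.16 as deposited and 0.53 ± 0.21 turned. Of 17 imprinted genes 12 were lower in SCNT as deposited and 11 turned, with a median of -0.30 as deposited and -0.08 turned, and 0 were called.

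The IGF axis, IGF2 and IGF2R included, gave 9 of 12 lower in SCNT as deposited and 8 turned, with medians of -0.21 and -0.12 and 0 called. IGFBP6, a binding protein that prefers IGF2, was at -1.70, -1.15, -0.20, -0.93 and -2.81 in SCNT animals against 0.27, 0.19, 1.09, 0.23 and -0.24. SCNT replicate 3 and AI replicate 5 met near -0.2, and the difference was -1.66 ± 0.40 (adjusted p = 0.121) or -1.05 ± 0.40 turned.

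In the WNT list 16 of 23 genes were lower in SCNT as deposited, with a median of -0.15, and 12 of 23 turned, with a median of -0.01. None was called. SFRP1 binds WNT ligands outside the cell. It was at -1.28, -2.11, -0.89, -1.24 and -1.33 in SCNT animals against -0.87, 0.90, 1.09, 1.35 and 0.06 in AI animals. The lowest AI animal, replicate 1, was just above the highest SCNT animal, and the difference was -1.88 ± 0.38 (adjusted p = 0.0667), or -0.86 turned. Its relative SFRP2 was at -1.98, -1.63, -0.80, -1.11 and -0.82 against -0.47, -0.01, 0.42, 0.98 and -0.30. SFRP2 differed by -1.39 ± 0.30 (adjusted p = 0.0876) and by -1.15 ± 0.30 with the sign turned (unadjusted p = 0.00212). TCF7L2, a DNA-binding effector of the pathway, differed by -0.54 ± 0.16 and, turned, by -0.44 ± 0.16.

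Prostaglandins time luteolysis and act at attachment. HPGD, the enzyme that inactivates them, was at 0.96, 1.62, 1.81, 1.72 and 1.95 in SCNT animals and at -0.76, -1.48, -1.60, -1.02 and 1.10 in AI animals. In 4 of 5 AI animals it lay far below 0, while AI replicate 5 lay above the lowest SCNT animal. The difference of 2.36 ± 0.42 had an adjusted p of 0.0617, and with the sign turned it was 0.86 ± 0.42. The synthases PTGDS and PTGIS differed by -1.02 ± 0.33 and -0.36 ± 0.13 (-0.92 and 0.06 turned), and PTGS1, the constitutive cyclooxygenase, by -0.02 as deposited and -0.33 ± 0.20 turned. Of 16 genes 5 were higher and 11 lower as deposited and 8 higher and 8 lower turned, with medians of -0.06 and -0.01 and 0 called.

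Steroid signalling genes were 8 higher and 12 lower of 20 as deposited and 9 and 11 turned, with medians of -0.07 and -0.02 and 0 called. PGR, the progesterone receptor, was at 0.18, -0.10, -0.35, -0.14 and -0.41 in SCNT animals and at 0.37, 0.08, 0.30, 0.48 and 0.39 in AI animals. Only SCNT replicate 1 and AI replicate 2 overlapped, and the difference was -0.49 ± 0.13 (adjusted p = 0.172), against 0.16 ± 0.13 turned. NR2F2, a stromal nuclear receptor downstream of progesterone, differed by -0.71 ± 0.21 and -0.46 ± 0.21 turned. The oxidoreductase HSD17B11 differed by 0.63 ± 0.16 (adjusted p = 0.153) and 0.22 turned. HSD17B8 was nearly the same under either sign, at -0.40 ± 0.17 and -0.41 ± 0.17. HSD17B1, which makes oestradiol, was at -0.08 as deposited and -0.35 ± 0.16 turned.

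Regulators of implantation were 10 higher and 12 lower of 22 under either sign, with medians of -0.03 under either sign and 0 called. MSX1, a homeobox factor of uterine receptivity, was at 1.11, 1.07, 1.25, 1.40 and 0.97 in SCNT animals. In AI animals MSX1 was spread from -1.05 in replicate 4 to 1.38 in replicate 1, with -0.23, -0.43 and 0.35 in replicates 2, 3 and 5. The AI mean was near 0, so the difference was 1.15 ± 0.35 as deposited (adjusted p = 0.214) and 1.16 ± 0.35 turned. A second MSX1 probe gave -0.22 and 0.34, so the probes disagree. FST, which binds activins, was at -1.44, -1.07, -1.22, -1.15 and -0.53 in SCNT animals against -1.55, 0.63, 0.11, 1.27 and -0.39. FST differed by -1.09 ± 0.41 and -1.07 ± 0.41 turned, with AI replicate 1 below every SCNT animal. HOXA9 differed by -0.64 ± 0.27 and -0.89 ± 0.27 turned (unadjusted p = 0.00613), and the epithelial factor KLF5 by 0.70 ± 0.29 and 0.41 ± 0.29.

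Adhesion receptors and gap junctions were lower in SCNT at 21 of 27 genes as deposited and 16 turned, with medians of -0.14 and -0.07 and 0 called. LAMA4, a laminin chain of vessel and muscle basement membranes, had small but tight ratios. It was at -0.36, -0.13, -0.23, -0.53 and -0.33 in SCNT animals and at 0.27, 0.24, 0.42, 0.31 and 0.25 in AI animals. The difference was -0.62 ± 0.11 (adjusted p = 0.0577) and vanished with the sign turned, at -0.02 ± 0.11. GJA1, connexin 43 of gap junctions, was at -1.92, -1.48, -1.70, -2.33 and -0.98 against -0.72, 0.84, 1.43, 1.55 and -0.28. The GJA1 difference was -2.25 ± 0.42 (adjusted p = 0.0647), and -1.12 ± 0.42 turned. SDC2, a heparan sulfate proteoglycan, lay between -0.73 and -0.50 in all SCNT animals and between -0.18 and 0.59 in AI animals, a difference of -0.79 ± 0.16 (adjusted p = 0.0671), or -0.42 turned. GJB2, another connexin, differed by -0.14 as deposited and -0.60 ± 0.23 turned.

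More glycolysis and hypoxia genes were lower than higher in SCNT under either sign, but not in the dye reading. Of 31 measured 24 were lower in SCNT as deposited and 20 turned, with medians of -0.30 and -0.21, and 0 were called. In that reading 11 of 31 were lower as deposited and 10 turned, with medians of 0.05 and 0.07. The list's median was between -0.28 and -0.09 in SCNT animals and between -0.02 and 0.22 in AI animals. The glycolytic enzyme PGK1 was at -0.26, -1.12, -0.29, -0.26 and -1.07 in SCNT animals against 0.17, 0.21, 0.47, 0.31 and 0.31 in AI animals. PGK1 differed by -0.90 ± 0.19 (adjusted p = 0.0876; -0.31 turned), and 7 of 7 probes for it lay on the same side as deposited. HMOX1, which breaks down heme, differed by -0.90 ± 0.17 (adjusted p = 0.0647; -0.35 turned). PFKFB3, which drives glycolytic flux through fructose bisphosphate, went against the list, at 0.50, 0.52, 0.97, 0.21 and 0.63 against -0.33, -0.59, -0.52, -0.20 and -0.13. The animals of each group lay on 1 side of 0 for PFKFB3, with a difference of 0.92 ± 0.15 (adjusted p = 0.0565) that shrank to 0.21 ± 0.15 with the sign turned. GPI and PGAM1 had the smallest p values under the turned sign, at -0.32 ± 0.13 and -0.38 ± 0.17, against -0.24 and -0.58 as deposited.

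Nutrient transport and fatty acid genes were 18 higher and 16 lower of 34, with a median of 0.03, under either sign and 0 were called. SLC27A6, a fatty acid transporter, was at 1.57, -0.03, 0.94, 1.25 and 2.44 in SCNT animals against -0.04, -0.38, -1.28, -0.94 and -0.11, a difference of 1.79 ± 0.39 (adjusted p = 0.0955), or 0.68 turned. SLC22A5, the carnitine transporter, differed by 1.20 ± 0.30, and CPT1A, which loads fatty acids onto carnitine, by 0.68 ± 0.18. Turned, they differed by 0.32 and 0.22. FASN, which makes fatty acids, differed by -0.77 ± 0.30 and -0.65 turned, with a second probe at 0.06 as deposited. FABP3, a fatty acid binding protein, ranged from -3.48 to -0.03 in SCNT animals and from -2.95 to 0.87 in AI animals, and differed by -0.75 ± 0.76, or -1.61 turned. The glucose transporter SLC5A1 differed by 0.07 as deposited and 0.33 ± 0.16 turned.

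The remaining lists had medians close to 0. Complement and coagulation genes were 15 higher and 15 lower of 30 as deposited and 17 and 13 turned, with medians of -0.01 and 0.04 and 0 called. The clotting factor F5 was at 0.51, 0.51, 0.31, 0.29 and 0.91 in SCNT animals against 0.28, -0.32, -1.11, -1.28 and 0.12, a difference of 0.97 ± 0.28 (adjusted p = 0.201) that was 0.04 turned. The complement inhibitors CFI and CD59 differed by 0.83 ± 0.26 and 0.54 ± 0.19, or 0.54 and 0.42 turned. SERPING1, the inhibitor of C1, was at -0.69, -0.44, -0.58, -0.36 and -3.68 in SCNT animals, the last far from the rest, and differed by -1.08 and -1.22 turned. PROCR, the protein C receptor, differed by 0.13 and 0.33 turned. Cell cycle genes were 10 higher and 22 lower of 32 as deposited and 16 and 16 turned, with medians of -0.07 and 0.01 and 0 called. MCM2 of the replication helicase differed by -0.43 ± 0.13, the reductase subunit RRM1 by 0.56 ± 0.19 and the inhibitor CDKN1B by 0.40 ± 0.17, against -0.05, 0.38 and -0.06 turned. With the sign turned CCNB1 was at 0.63 ± 0.29 and CDC6 at 0.19 ± 0.12, against 0.16 and -0.16 as deposited. Heat shock and folding genes were 12 higher and 17 lower of 29 under either sign, with medians of -0.07 and -0.02 and 0 called. PDIA4 and PDIA3, which form disulfide bonds, differed by -0.53 ± 0.18 and -0.65 ± 0.23, and the chaperonin subunit CCT4 by -0.42 ± 0.16, against 0.17, -0.02 and -0.26 turned. Turned, DDIT3 was at -0.23 ± 0.12, CALR at -0.34 ± 0.20 and HSPB8 at 0.53 ± 0.32, against 0.12, -0.40 and 0.76 as deposited.

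With the AI sign turned, the genes with the smallest p were other ones, and none passed. MRGPRF, an orphan receptor, was at -0.60, -0.66, -0.47, -0.58 and -0.72 in SCNT animals and at -0.37, 0.19, 0.02, 0.22 and -0.28 in AI animals as deposited. The SCNT animals lay below every AI animal under either sign, with a difference of -0.65 ± 0.14 turned (unadjusted p = 0.000443) and -0.56 ± 0.14 as deposited. ANTXR2, a receptor for matrix proteins and anthrax toxin, differed by -0.55 ± 0.12, AFF1 of the transcription elongation machinery by -0.55 ± 0.13 and the nucleotidase NT5C3B by -0.50 ± 0.13. As deposited these were at -0.39, -0.31 and -0.34. On the higher side CYP2D43, a cytochrome P450, was positive in all 10 animals as deposited. Its group means of 0.26 and 0.24 were alike in size, so the turned difference was 0.50 ± 0.11 and the deposited one 0.02 ± 0.11. CDK8, a Mediator kinase, had the same form, at 0.55 ± 0.13 turned and 0.07 as deposited. The ubiquitin ligase ZNRF1 was at 0.51 ± 0.13 turned and -0.29 ± 0.13 as deposited.

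Few genes gave the same difference under both signs, which needs an AI ratio near 0. Of all probes, 253 had an unadjusted p under 0.05 on the same side under both, and 0 passed. At 8 probes (0.0579%) every SCNT animal lay above every AI animal under both signs and at 16 (0.116%) below, a count made after the values were seen. PGS1, a mitochondrial enzyme of phospholipid synthesis, was at 0.35, 0.61, 0.23, 0.65 and 0.38 in SCNT animals against 0.10, -0.09, 0.18, 0.01 and 0.04. PGS1 differed by 0.39 ± 0.12 as deposited and 0.49 ± 0.12 turned. PLD2, a phospholipase, was at -0.41, -0.34, -0.37, -0.38 and -0.55 against 0.04, -0.13, 0.02, -0.05 and 0.03. Here both groups were tight and the AI animals close to 0, and PLD2 differed by -0.39 ± 0.10 and -0.43 ± 0.10. SMS, which makes spermine, differed by 1.06 ± 0.29 and 1.02 ± 0.29, but its AI animals were split, with 0.78 and 0.66 in replicates 1 and 5 and values from -0.63 to -0.42 in the others. CCDC88C, a regulator of WNT signalling, was split in the same way and differed by 0.91 ± 0.23 and 0.87 ± 0.23, while its other 2 probes gave 0.07 and 0.20. SUSD2 differed by 0.65 ± 0.18 and 0.64 ± 0.18 and the transcription factor TCF12 by -0.81 ± 0.19 and -0.69 ± 0.19. IGF2, SFRP2 and MSX1 belong to the same group by this rule.

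**Figure D5:**
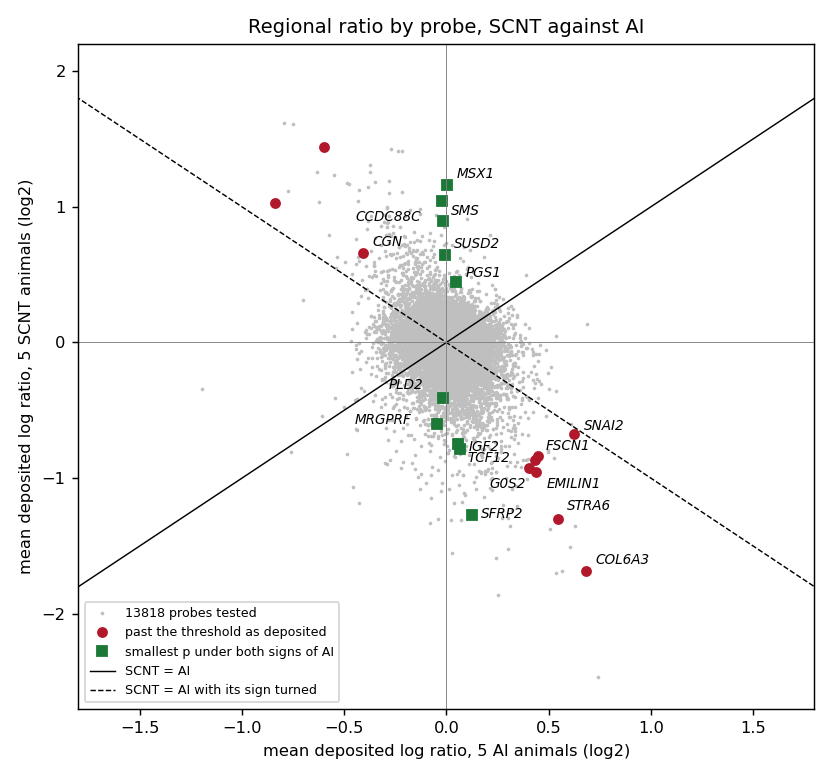
Mean deposited log ratio of the 5 SCNT animals (y axis) against that of the 5 AI animals (x axis) for 13818 probes, read as log2. Probes past the threshold (red) lie where the groups have ratios of opposite sign, and genes with the smallest p under both signs (green) lie where the AI mean is close to 0.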

How the data were processed

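The authors deposited log ratios of the 2 channels per spot, here read as log2. Their normalisation, log base and channel order are not given in the sources used here. Per the labels' protocols, RNA was labelled through aminoallyl cDNA with Cy3 or Cy5. In 8750 of 8750 annotated pairs adjacent spots shared an accession, so 27648 spots were averaged to 13824 probes. Arrays were centred on their median and the 2 arrays of an animal averaged. Probes with values in at least 4 of 5 animals of each group were tested with limma 3.58.1 in R 4.3.3 (lmFit, eBayes, 1 mean per group, two-sided, Benjamini-Hochberg over all probes, threshold 0.05). The fit was tested on simulated data with known differences. The limma p-values set a difference against the spread of animal means. Disagreement between the 2 arrays of an animal enters them only through those means. Animal-level values had exact permutation tests.

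Of the probes, 8645 had 1 symbol in the platform annotation, 105 several and 5074 were not listed, and 8620 had a gene ID in the bovine RefSeq table, which updated 0 symbols. A gene with several probes was represented by the one with most values. Coordinates are not given, since no genome build is named.

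Genes were named by rule: the 10 largest differences in each direction past the threshold without overlap, as deposited and turned, with 5 by p in place of these if none passed, likewise under both signs. From each of 21 lists up to 3 members with the smallest p under each sign were named. Exceptions are marked in the text. The comparison, its rule and the gene lists were chosen with earlier results of these data known. The alternatives tried were reading the values as dye ratios, IVF-ET animals in the fit, arrays scaled to 1 spread, other filters on missing values, animal weights, the dye effect taken off, 1 dye orientation only and leaving out animals.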

Additional observations from a re-analysis of the deposited data

Results flagged for a closer look

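In 17 of 224 groups of 5 animals, over the named genes and the measures of an animal, 1 animal lay far from the others by Dixon's gap test at 95%. That test flags about 1 in 20 groups by chance; these groups share animals and were named for small p, so the number of flags has no chance level here. In SCNT replicate 5 these were CCN2 at 1.77 (others 0.94 to 1.07), CTSH at -1.26 (-0.39 to -0.08), IRF1 at -2.07 (-0.24 to -0.15), KLF5 at 1.67 (0.12 to 0.42), HOXA9 at -1.75 (-0.67 to -0.39), PGAM1 at -1.09 (-0.43 to -0.26), SERPING1 at -3.68 (-0.69 to -0.36), PROCR at 0.74 (-0.01 to 0.20) and CCT4 at -0.91 (-0.26 to -0.10). The same animal had the SD over probes of 0.702, against 0.216 to 0.321 in the other SCNT animals. In AI replicate 5 CCN2 was at 0.71 (others -1.02 to -0.55), KLF5 at 0.63 (-0.43 to -0.18) and CALD1, which binds actin in smooth muscle, at 0.44 (-0.10 to 0.04). PGAM1 was at 0.49 in AI replicate 3 (-0.01 to 0.02) and CTSB at -0.32 in AI replicate 1 (0.10 to 0.27). ZNRF1 was at -0.10 in SCNT replicate 3 (0.14 to 0.17) and NOS3, the endothelial nitric oxide synthase, at 0.39 in SCNT replicate 2 (-0.01 to 0.10).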

How the results depend on the processing

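As deposited, the count of 10 probes was 131 with IVF-ET animals in the fit, 88 with arrays scaled to 1 spread, 187 with animal weights, 35 from arrays with the caruncle on Cy5 alone and 0 from those with it on Cy3 alone. It stayed at 10 under both other filters on missing values and with the dye effect taken off. Leaving out 1 animal gave 0 to 101, and leaving out AI replicate 1 and SCNT replicate 5 together, chosen after seeing the data, gave 351. Read as dye ratios, the values gave 0 probes as deposited and 868 with the AI sign turned, the 1 setting with calls under that sign. That fit adds the group means, and a dye effect common to both groups does not cancel in it. The 868 calls therefore cannot be read as differences between SCNT and AI, and their cause was not tested. No probe passed under both signs in any setting. All 10 probes kept their side in every setting but the dye reading, where EMILIN1 was at 0.17 as deposited and the other 6 named genes shrank, COL6A3 to -0.37, STRA6 to -0.30 and CGN to 0.10 among them. Of 110 named genes 72 moved by over 1 SD as deposited in that reading. The turned differences of PAG2, PGK1 and PDIA3 also changed sign in the dye reading, to 0.54, 0.57 and 0.56. The difference in spread was -0.058 in the dye reading and -0.0179 to 0.103 with 1 animal left out. The difference in correlation between arrays was 0.194 with the dye effect taken off, an alternative added later, and 0.240 to 0.395 with 1 animal left out. Its exact permutation p was 0.0556 without AI replicate 4 or 5. No paired analysis was possible because replicate numbers name different animals in each group; the pairing of the tissues is inside each array. Signal over background was not used here.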
